A study of Mus musculus with 8 samples.

Results

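The LPS response of bone marrow-derived macrophages labelled ELF1 KO was taken from 4 of the 8 RNA-seq libraries of the series. The 2 libraries labelled ELF1 KO BMDM M1 (KO LPS libraries) were compared with the 2 labelled ELF1 KO BMDM con (KO control libraries). M1 was read as stimulation with lipopolysaccharide (LPS) for 6 h, since the design text names no other stimulus; the 2 KO groups differ in nothing else the labels give. The other 4 libraries were WT BMDM M1 and WT BMDM con, 2 each. The labels name no strain, age, sex, knockout allele or number of animals, so p-values measure the spread between libraries, which may be technical. Total RNA came from cultures of bone marrow macrophages, primary cells grown out of marrow precursors.

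LPS is an outer membrane component of Gram-negative bacteria. CD14 and MD-2 (Ly96) pass it to the receptor TLR4, which signals through MyD88 to NF-kB and MAP kinases, and through TRIF (Ticam1) to TBK1 and IRF3. The TRIF branch induces interferon beta, which acts back on the cells through STAT2 and IRF9 and switches on interferon-stimulated genes. Inflammatory macrophages also make nitric oxide and itaconate and take up more glucose. ELF1 is an ETS family transcription factor, a class of DNA-binding proteins that recognise a GGAA core.

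Elf1 itself (ENSMUSG00000036461, chr14:79481194-79582494, plus strand, mm10) was read in every library labelled KO, at 16.5 and 17.9 FPKM in KO LPS libraries, against 16.9 and 16.1 FPKM in KO control libraries (log2 change 0.06 ± 0.07, adjusted p = 0.501 by limma). In WT it stood at 21.9 and 22.4 FPKM with LPS, against 12.4 and 14.1 FPKM without. The change in KO did not pass on the deposited scale but was a fall at a common FPKM sum, with a log2 change of -0.39. It was also a fall at equal read totals and under quantile normalization. KO values were below WT values with LPS and above them without. In neither condition was the transcript near 0 in KO. Loss of single exons would not be visible in the level over the whole gene. The genotype is given below as labelled.

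The deposited FPKM (fragments per kilobase of transcript, scaled for library size) rested on 15753259 and 16823095 reads in KO LPS libraries and 17297543 and 17435965 reads in KO control libraries. All 8 macrophage markers were tested, and their summed level was 7663 and 7026 FPKM in KO LPS libraries, against 9711 and 10263 FPKM in KO control libraries. No B cell, NK cell, erythroid or dendritic cell marker reached the filter. Of T cell, mast cell and basophil, and megakaryocyte markers, 2, 1 and 2 did. Among these, Lck rose by 1.615 ± 0.12 on the log2 scale. Cd4, Kit and Gp1ba fell, with log2 changes of -0.91 ± 0.08, -0.33 ± 0.09 and -0.73 ± 0.11, and Ppbp did not pass. The 10 neutrophil markers summed to 14.6 and 9.95 FPKM in KO LPS libraries, against 5.301 and 5.03 FPKM in KO control libraries, with Ly6g and Retnlg at 0 in all 4. Of these sums, S100a8 made up 9.79 and 6.65 FPKM in KO LPS libraries, against 1.497 and 1.36 FPKM in KO control libraries. Among the 4 neutrophil markers tested, S100a8 and Camp rose, with log2 changes of 1.905 ± 0.24 and 1.115 ± 0.23. Ngp fell, with a log2 change of -0.73 ± 0.24, and S100a9 did not pass. Stromal markers summed to 7.33 and 8.01 FPKM in KO LPS libraries, against 0.693 and 3.06 FPKM in KO control libraries, of which Pdgfrb made up 6.68 and 7.001 FPKM in KO LPS libraries, against 0.14 and 0.221 FPKM in KO control libraries. The part of these markers in the results was not tested. Mitochondrial reads were 1.03 and 1.10% in KO LPS libraries, against 1.53 and 1.31% in KO control libraries. In these bulk libraries, a change in the share of a cell type and a change of RNA per cell cannot be told apart.

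LPS changed a large part of the transcriptome of the KO-labelled macrophages. Of 11887 genes that reached 1 FPKM in 2 or more libraries, 4123 rose (34.7%) and 3705 fell (31.2%), 65.9% in all (limma on log2(FPKM + 1), Benjamini-Hochberg adjusted p under 0.05). Large changes were mostly rises, with 1602 genes (13.5%) higher and 1002 (8.43%) lower by at least 1 on the log2 scale, and 153 higher and 8 lower by at least 4. In all, 104 genes had 10 FPKM or more in both KO LPS libraries and under 1 in both KO control libraries, and 19 did the opposite. The libraries of the 2 groups did not overlap in 82.7% of all tested genes. As all tested genes split in direction too, a list below that moved both ways is not set apart by that. The split depends on scaling: with each library set to a common FPKM sum, 2413 rose and 6730 fell, and the median of all genes was -0.37 in place of 0.02 on the log2 scale. Calls below are on the deposited scale unless a common FPKM sum is named, every log2 change is KO LPS less KO control with its standard error, and the count of each group is repeated at a common FPKM sum, where it reads against the lower median. Of 1308 list entries in the table, 1210 passed the filter on low values, and counts cover these; a gene silent without LPS passed only through its LPS level, so it had to differ.

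**Figure D1:**
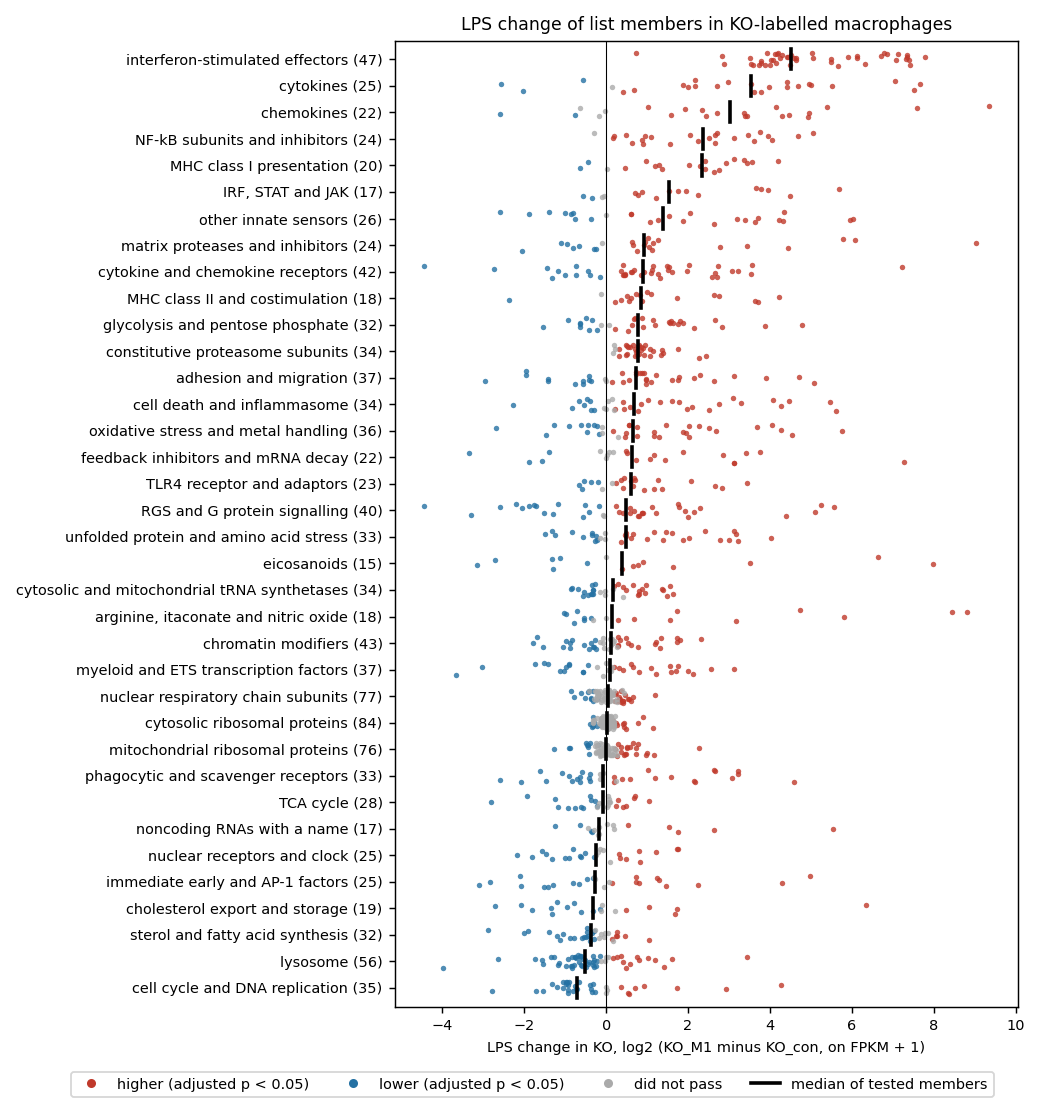
Log2 change with LPS in KO-labelled macrophages (KO LPS less KO control, log2 of FPKM + 1) for the tested members of 36 gene groups, the number tested in brackets. Each point is a gene, red where it rose, blue where it fell and grey where it did not pass; black ticks are medians, highest for interferon-stimulated effectors (4.52) and cytokines and lowest for cell cycle genes.

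Promoters of genes that carry the main groups below are shown first. They were picked after the motif search, from the RefSeq table of the GRCm38.p6 assembly, as the 250 bases before the gene's start, 5′ to 3′ on the gene's strand. Capitals mark, on either strand, only the motif named before each set; matches of other motifs stay in lower case. The interferon-stimulated response element (GAAA, any 2 bases, GAAA) is a site of STAT2 with IRF9 and of other IRFs.
Rsad2 (chr12:26456453-26456702, minus strand): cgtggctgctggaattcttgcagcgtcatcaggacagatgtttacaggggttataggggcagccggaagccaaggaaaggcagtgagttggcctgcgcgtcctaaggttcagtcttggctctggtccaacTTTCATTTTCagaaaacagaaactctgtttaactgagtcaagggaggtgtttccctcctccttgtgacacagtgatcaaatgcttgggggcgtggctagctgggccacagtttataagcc
Ifit3 (chr19:34583279-34583528, plus strand): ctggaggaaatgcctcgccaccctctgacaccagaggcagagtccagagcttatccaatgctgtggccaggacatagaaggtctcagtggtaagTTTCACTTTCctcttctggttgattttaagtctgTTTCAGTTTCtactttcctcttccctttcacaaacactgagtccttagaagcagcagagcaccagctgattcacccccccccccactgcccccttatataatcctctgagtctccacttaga
Cxcl10 (chr5:92348890-92349139, minus strand): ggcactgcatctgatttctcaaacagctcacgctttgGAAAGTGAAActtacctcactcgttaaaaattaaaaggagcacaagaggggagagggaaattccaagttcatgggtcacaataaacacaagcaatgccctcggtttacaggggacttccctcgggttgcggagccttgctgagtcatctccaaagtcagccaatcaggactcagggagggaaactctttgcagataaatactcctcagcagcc
A kappa B site (GGGA, any base, TTTCC), bound by NF-kB dimers, was matched before these genes.
Nfkbia (chr12:55492648-55492897, minus strand): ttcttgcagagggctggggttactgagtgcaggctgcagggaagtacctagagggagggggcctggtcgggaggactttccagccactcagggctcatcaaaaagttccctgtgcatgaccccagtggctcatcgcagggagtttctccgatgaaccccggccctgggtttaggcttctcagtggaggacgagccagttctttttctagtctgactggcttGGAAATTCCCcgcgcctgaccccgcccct
Cxcl2 (chr5:90903649-90903898, plus strand): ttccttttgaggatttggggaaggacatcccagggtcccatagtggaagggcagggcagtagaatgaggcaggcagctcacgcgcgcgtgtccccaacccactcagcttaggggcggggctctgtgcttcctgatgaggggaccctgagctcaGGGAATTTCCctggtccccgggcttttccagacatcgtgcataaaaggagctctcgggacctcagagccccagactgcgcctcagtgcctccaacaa
An ETS site (CCGGAAG), the kind of sequence that ELF1 and related factors bind, was matched in the proteasome gene Psma6, before 1 of its 2 annotated starts.
Psma6 (chr12:55398575-55398824, plus strand): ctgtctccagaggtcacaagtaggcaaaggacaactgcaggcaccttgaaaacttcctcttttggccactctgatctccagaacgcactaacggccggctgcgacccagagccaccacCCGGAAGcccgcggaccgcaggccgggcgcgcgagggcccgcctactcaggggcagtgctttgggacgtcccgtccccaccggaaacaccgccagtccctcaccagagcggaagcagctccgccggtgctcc
A match describes letters in this window and is no evidence of binding. The response element was in 56.4% of the 39 interferon-stimulated effectors with a window, against 3.6% of all 8193 tested genes with one. The kappa B site was in 20.0% of the 15 chemokines with a window and 15.0% of the 20 NF-kB genes, against 0.488% of tested genes. The ETS site was in 32.1% of the 28 proteasome genes, against 16.9% of tested genes. In other groups it was in 36.4% of the 11 arginine, itaconate and nitric oxide genes, 28.3% of the 60 cytosolic ribosomal protein genes and 27.8% of the 18 TLR4 pathway genes that had a window. It was in 9.19% of genes higher by at least 1 on the log2 scale and 7.67% of those lower by at least 1. Both strands were searched for each motif. The AP-1 site (TGANTCA), searched too, was in 20.5% of the interferon-stimulated effectors, against 5.57% of tested genes. It was in more of the class II and costimulation genes (36.4%), matrix protease genes (35.3%), cytokines (22.2%) and oxidative stress genes (21.4%) with a window. No other list exceeded 20.0%. In the windows printed, Rsad2, Ifit3 and Cxcl10 each hold 1 AP-1 match and Rsad2 also 1 ETS match, none in capitals.

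Receptor and adaptor genes of the TLR4 pathway moved both ways. Of this list, 16 rose, 5 fell and 2 did not pass among the 23 tested of 24 in the table, against 9 rises and 8 falls at a common FPKM sum. Cd14, the co-receptor that hands LPS on, was at 1528 and 1467 FPKM in KO LPS libraries, against 351 and 356 FPKM in KO control libraries (log2 change 2.08 ± 0.05). Tlr4 itself fell, at 12.2 and 12.4 FPKM in KO LPS libraries, against 18.4 and 19.6 FPKM in KO control libraries (log2 change -0.59 ± 0.06). Ly96, the MD-2 protein bound to TLR4, stood at 9.34 and 9.996 FPKM in KO LPS libraries, against 6.46 and 5.67 FPKM in KO control libraries (log2 change 0.60 ± 0.09), a rise that did not pass at a common FPKM sum, where the change was 0.18. Groups did not overlap in any of the 3, nor in 82.7% of all tested genes. Myd88, the main adaptor, rose by 2.65 ± 0.05, Irak2 by 1.36 ± 0.05, and the kinases Tbk1 and Ikbke by 1.27 ± 0.05 and 2.84 ± 0.05. Irak3, an IRAK without kinase activity that dampens signalling, had the largest rise of the list, at 82.1 and 76.3 FPKM in KO LPS libraries, against 6.27 and 6.53 FPKM in KO control libraries (log2 change 3.44 ± 0.05). Irak1 changed by -0.66 ± 0.06 and Traf6, a ubiquitin ligase, by 0.24 ± 0.06; Traf6 was lower at a common FPKM sum (-0.17) and did not pass without KO control library 2 (0.20).

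Other sensors of microbial products also split by gene: 17 rose, 8 fell and 1 did not pass among the 26 tested, against 16 rises and 9 falls at a common FPKM sum. The lectin Clec4e, which binds mycobacterial glycolipid, rose most, at 743 and 711 FPKM in KO LPS libraries, against 10.7 and 9.797 FPKM in KO control libraries (log2 change 6.02 ± 0.06). Zbp1, a sensor of Z-form nucleic acid, was at 109 and 101 FPKM in KO LPS libraries, against 0.666 and 0.725 FPKM in KO control libraries (log2 change 5.96 ± 0.06). The RNA sensor Ifih1 rose by 4.33 ± 0.08, the peptidoglycan sensor Nod2 by 3.71 ± 0.09, Tlr2 by 2.04 ± 0.05 and the inflammasome sensor Nlrp3 by 3.39 ± 0.05. Clec7a, the beta-glucan receptor dectin-1, fell, at 26.2 and 26.02 FPKM in KO LPS libraries, against 99.4 and 98.1 FPKM in KO control libraries (log2 change -1.88 ± 0.06), and Nlrp1b changed by -2.60 ± 0.07.

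NF-kB genes were almost all higher: 23 rose, 0 fell and 1 did not pass among the 24 tested, against 20 rises and 3 falls at a common FPKM sum, with a median log2 change of 2.37. Both subunit genes and their inhibitors rose. Nfkb2, the p100 precursor, stood at 235 and 237 FPKM in KO LPS libraries, against 18.5 and 18.2 FPKM in KO control libraries (log2 change 3.61 ± 0.05). Nfkb1 rose by 2.51 ± 0.04, Rela by 1.56 ± 0.06, Relb by 2.23 ± 0.06 and Rel by 0.95 ± 0.06. The inhibitor Nfkbia, whose promoter is printed above, was at 426 and 453 FPKM in KO LPS libraries, against 25.7 and 25.2 FPKM in KO control libraries (log2 change 4.06 ± 0.04). Tnfaip3 (A20), a ubiquitin editing enzyme that limits NF-kB, rose by 4.67 ± 0.04, Nfkbie by 3.95 ± 0.06 and Traf1 by 5.04 ± 0.05, the largest of the list.

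Immediate early and AP-1 genes did not share a direction 6 h after LPS: 10 rose, 11 fell and 4 did not pass among the 25 tested of 27 in the table, against 8 rises and 16 falls at a common FPKM sum. Fos and Jun, the AP-1 partners, were lower. Fos was at 34.2 and 32.4 FPKM in KO LPS libraries, against 142 and 147 FPKM in KO control libraries (log2 change -2.09 ± 0.07). Jun was at 20.8 and 20.6 FPKM in KO LPS libraries, against 51.7 and 53.6 FPKM in KO control libraries (log2 change -1.30 ± 0.05). Egr1, an early zinc finger factor, fell, with a log2 change of -3.11 ± 0.13, Nr4a1 of -2.85 ± 0.08 and Klf2 of -2.10 ± 0.11. Batf, a partner of Jun proteins, rose, at 47.3 and 39.2 FPKM in KO LPS libraries, against 0.289 and 0.511 FPKM in KO control libraries (log2 change 4.98 ± 0.11), Batf2 by 4.29 ± 0.10 and Junb by 1.25 ± 0.06. Atf3 did not pass, at 99.6 and 98.2 FPKM in KO LPS libraries, against 103 and 102 FPKM in KO control libraries; it was lower at a common FPKM sum.

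The interferon pathway's factors mostly rose: 13 rose, 2 fell and 2 did not pass among the 17 tested of 20 in the table, against 13 rises and 4 falls at a common FPKM sum. Irf7, which drives interferon alpha genes, stood at 243 and 239.9 FPKM in KO LPS libraries, against 3.804 and 3.59 FPKM in KO control libraries (log2 change 5.69 ± 0.05). Stat2, which carries the interferon signal to the nucleus, rose by 3.96 ± 0.05, and Irf1 by 3.79 ± 0.07. Jak2 was at 253 and 260.0 FPKM in KO LPS libraries, against 10.7 and 10.4 FPKM in KO control libraries (log2 change 4.48 ± 0.05). Irf3, present before stimulation and switched on by phosphorylation, stood at 8.25 and 8.27 FPKM in KO LPS libraries, against 8.88 and 8.305 FPKM in KO control libraries and did not pass (adjusted p = 0.673 by limma). It was lower at a common FPKM sum, with a log2 change of -0.48. Irf8, a lineage factor of the same family, fell, with a log2 change of -0.58 ± 0.06. Among inhibitors of these pathways, 13 rose, 4 fell and 5 did not pass among the 22 tested of 28 in the table, against 11 rises and 8 falls at a common FPKM sum. Socs3, which blocks cytokine receptor kinases, was at 348 and 356 FPKM in KO LPS libraries, against 1.16 and 1.44 FPKM in KO control libraries (log2 change 7.27 ± 0.10). Socs1 rose by 3.13 ± 0.09, the phosphatase gene Dusp2 by 3.74 ± 0.11, and Zc3h12a (regnase-1), an RNase for cytokine mRNA, by 2.85 ± 0.06. Zfp36l2, from the family that marks AU-rich mRNA for decay, moved the other way, at 12.2 and 12.7 FPKM in KO LPS libraries, against 135 and 137 FPKM in KO control libraries (log2 change -3.34 ± 0.06); Zfp36 (tristetraprolin) changed by 0.51 ± 0.07, a rise that did not pass at a common FPKM sum.

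Interferon-stimulated effector genes rose as a whole, with 47 of 47 tested higher (also 47 at a common FPKM sum), 46 of them by at least 1 on the log2 scale, and a median of 4.52. As a share of each library's total FPKM, which library scaling cannot move, they made up 3.12 and 3.25% in KO LPS libraries, against 0.165 and 0.163% in KO control libraries. Rsad2 (viperin), an antiviral enzyme, stood at 554 and 651 FPKM in KO LPS libraries, against 1.65 and 1.81 FPKM in KO control libraries (log2 change 7.78 ± 0.09). Isg15, a ubiquitin-like modifier, was at 841 and 763 FPKM in KO LPS libraries, against 4.18 and 3.62 FPKM in KO control libraries (log2 change 7.36 ± 0.22). Mx1, an antiviral GTPase, was at 299 and 328 FPKM in KO LPS libraries, against 0.883 and 0.794 FPKM in KO control libraries (log2 change 7.42 ± 0.07). Gbp2, a guanylate-binding protein, stood at 632 and 633 FPKM in KO LPS libraries, against 2.98 and 2.55 FPKM in KO control libraries (log2 change 7.40 ± 0.06). Ifit3, which binds viral RNA with its relatives, was at 295 and 308 FPKM in KO LPS libraries, against 2.77 and 2.85 FPKM in KO control libraries (log2 change 6.31 ± 0.06). The libraries of the 2 groups stayed apart in each of these, as they did in 82.7% of all tested genes. Usp18, which removes Isg15, rose by 5.67 ± 0.13, Oas1a by 4.58 ± 0.06, and Trim25, the smallest rise, by 0.74 ± 0.04, which did not pass under quantile normalization, at 0.044. Members of the Ifit, Oas, Gbp and Mx families resemble each other, so reads may be split between copies.

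Cytokine genes were mostly higher (21 rose, 3 fell and 1 did not pass among the 25 tested of 34 in the table, against 20 rises and 4 falls at a common FPKM sum). Il1b, an inflammasome substrate, was at 1422 and 1258 FPKM in KO LPS libraries, against 5.68 and 5.46 FPKM in KO control libraries (log2 change 7.67 ± 0.06). Il1a, Tnf and Il10 rose by 7.06 ± 0.04, 5.51 ± 0.06 and 4.99 ± 0.07, and Il1rn, the antagonist of IL-1, by 7.52 ± 0.05. Il6 was listed at 0 in both KO control libraries and at 19.1 and 21.6 FPKM in KO LPS libraries. Il12b, the p40 subunit of IL-12 and IL-23, was at 20.8 and 24.1 FPKM in KO LPS libraries, against 0.0689 and 0.114 FPKM in KO control libraries (log2 change 4.42 ± 0.08). Vegfa, an angiogenic factor, and Osm fell, with log2 changes of -2.56 ± 0.06 and -2.02 ± 0.08. Of the chemokines, 17 rose, 2 fell and 3 did not pass among the 22 tested of 24 in the table, against 17 rises and 4 falls at a common FPKM sum. Ccl5 rose most, at 1713 and 1592 FPKM in KO LPS libraries, against 1.55 and 1.496 FPKM in KO control libraries (log2 change 9.35 ± 0.05). Cxcl10, a ligand of CXCR3 whose promoter is printed above, stood at 235 and 242 FPKM in KO LPS libraries, against 0.16 and 0.339 FPKM in KO control libraries (log2 change 7.59 ± 0.09). The neutrophil attractants Cxcl1 and Cxcl2 rose by 5.40 ± 0.16 and 4.94 ± 0.15, and Ccl2, a monocyte attractant, by 3.39 ± 0.13. Cxcl14 was lower, at 1.28 and 1.32 FPKM in KO LPS libraries, against 12.5 and 13.04 FPKM in KO control libraries (log2 change -2.58 ± 0.07).

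Receptor genes changed in both directions: 31 rose, 11 fell and 0 did not pass among the 42 tested of 43 in the table, against 23 rises and 11 falls at a common FPKM sum. Cd40 was higher, at 220.0 and 207 FPKM in KO LPS libraries, against 0.464 and 0.408 FPKM in KO control libraries (log2 change 7.22 ± 0.05). Tnfrsf1b, a TNF receptor, was among the largest gains of any gene in FPKM, at 1588 and 1697 FPKM in KO LPS libraries, against 246 and 246 FPKM in KO control libraries (log2 change 2.73 ± 0.05). Fas, Il15ra and Ccr7 rose by 3.57 ± 0.07, 3.55 ± 0.07 and 2.58 ± 0.14, and Ifnar1, a chain of the type I interferon receptor, by 1.49 ± 0.04. Cxcr4, the receptor for CXCL12 that holds cells in marrow, had the largest fall of the list, at 7.401 and 7.95 FPKM in KO LPS libraries, against 186 and 193 FPKM in KO control libraries (log2 change -4.46 ± 0.05). Tgfbr1 and Cx3cr1 fell, with log2 changes of -1.18 ± 0.05 and -1.32 ± 0.09.

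**Figure D2:**
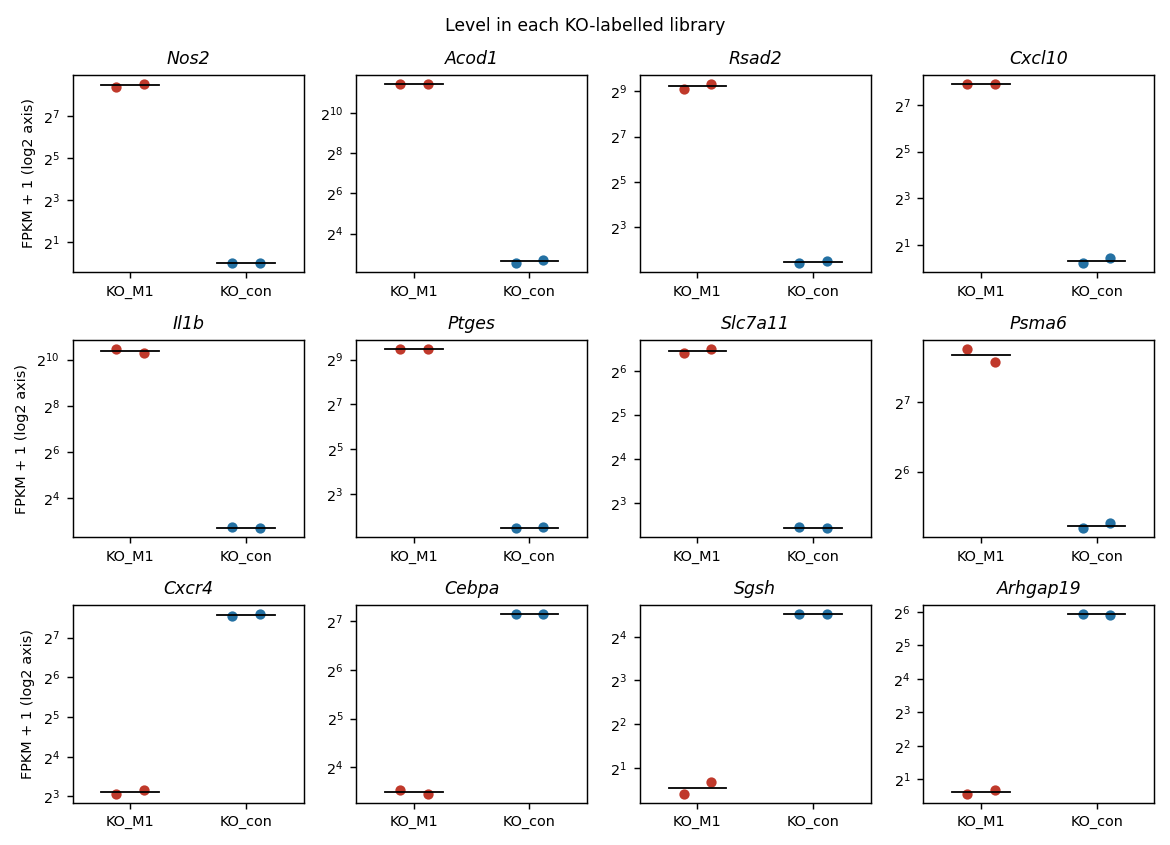
FPKM + 1 (log2 axis, which starts at a different value for each gene) of 12 genes in each KO-labelled library; points are single libraries, left KO LPS (KO_M1), right KO control (KO_con), and lines the mean FPKM + 1. Nos2, Acod1, Rsad2, Cxcl10, Il1b, Ptges, Slc7a11 and Psma6 were higher with LPS, and Cxcr4, Cebpa, Sgsh and Arhgap19 were lower. The 2 groups were apart for every gene shown, as for 82.7% of all tested genes.

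Genes that make itaconate and nitric oxide were among the strongest rises. Of the arginine, itaconate and nitric oxide list, 9 rose, 7 fell and 2 did not pass among the 18 tested, against 8 rises and 9 falls at a common FPKM sum. Acod1, which makes itaconate from a TCA cycle intermediate, was at 2806 and 2748 FPKM in KO LPS libraries, against 4.79 and 5.53 FPKM in KO control libraries (log2 change 8.82 ± 0.09). Nos2, which makes nitric oxide from arginine, was at 332 and 370.3 FPKM in KO LPS libraries, against 0.0102 and 0 FPKM in KO control libraries; the controls hold 1 read and 0 reads, so no fold is given. Slc7a2, an arginine carrier, Ass1, which rebuilds arginine, and Gch1, which starts cofactor synthesis for Nos2, rose by 5.80 ± 0.07, 4.73 ± 0.15 and 3.17 ± 0.05. Arg1, which competes for arginine, rose by 1.74 ± 0.11. In the TCA cycle, 7 rose, 12 fell and 9 did not pass among the 28 tested of 30 in the table, against 3 rises and 22 falls at a common FPKM sum. Idh1, a cytosolic isocitrate dehydrogenase, was at 13.6 and 12.8 FPKM in KO LPS libraries, against 96.3 and 99.8 FPKM in KO control libraries (log2 change -2.80 ± 0.05), and the mitochondrial Idh2 fell, with a log2 change of -1.25 ± 0.08. Sdha, a subunit of the succinate dehydrogenase that itaconate inhibits, stood at 46.05 and 45.4 FPKM in KO LPS libraries, against 44.2 and 43.1 FPKM in KO control libraries and did not pass; it was lower at a common FPKM sum. Dld rose by 1.05 ± 0.09.

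In lipid mediator synthesis, 8 rose, 6 fell and 1 did not pass among the 15 tested of 20 in the table, against 7 rises and 7 falls at a common FPKM sum. The inducible pathway to prostaglandin E2 rose together, from Pla2g4a, which frees arachidonic acid (3.51 ± 0.06), through Ptgs2 (COX-2), at 235 and 245 FPKM in KO LPS libraries, against 1.17 and 1.705 FPKM in KO control libraries (log2 change 6.63 ± 0.10), to Ptges, at 709.7 and 716 FPKM in KO LPS libraries, against 1.77 and 1.895 FPKM in KO control libraries (log2 change 7.98 ± 0.07). Ptgs1 (COX-1) was lower, at 1.82 and 2.14 FPKM in KO LPS libraries, against 17.8 and 19.4 FPKM in KO control libraries (log2 change -2.72 ± 0.09). Hpgd, which breaks prostaglandins down, was also lower, at 0.53 and 0.541 FPKM in KO LPS libraries, against 13.4 and 12.03 FPKM in KO control libraries (log2 change -3.16 ± 0.11). Alox5ap, needed for leukotrienes, fell, with a log2 change of -1.32 ± 0.13. Among matrix proteases and their inhibitors, 16 rose, 7 fell and 1 did not pass among the 24 tested of 26 in the table, against 16 rises and 7 falls at a common FPKM sum. Mmp13, a collagenase, was at 1264 and 1313 FPKM in KO LPS libraries, against 1.39 and 1.53 FPKM in KO control libraries (log2 change 9.04 ± 0.05). Mmp14 rose by 5.79 ± 0.07, Serpinb2 by 6.07 ± 0.28 and Timp1 by 4.45 ± 0.51, whereas Timp2 was at 43.9 and 44.9 FPKM in KO LPS libraries, against 187 and 187 FPKM in KO control libraries (log2 change -2.05 ± 0.04).

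Antigen presentation genes were mostly higher. In the class I pathway, 17 rose, 2 fell and 1 did not pass among the 20 tested, against 16 rises and 3 falls at a common FPKM sum. Tap1, which moves peptides into the endoplasmic reticulum, was at 143 and 156 FPKM in KO LPS libraries, against 7.04 and 7.24 FPKM in KO control libraries (log2 change 4.20 ± 0.06). The immunoproteasome subunits Psmb8, Psmb9 and Psmb10 rose by 2.77 ± 0.05, 2.42 ± 0.08 and 3.37 ± 0.07, Psme2 by 3.57 ± 0.14 and the class I activator Nlrc5 by 3.44 ± 0.08. The heavy chain H2-K1 and B2m, abundant before LPS, rose by 1.35 ± 0.06 and 1.20 ± 0.12; heavy chain genes resemble each other, so their values are uncertain. In the class II and costimulation list, 16 rose, 1 fell and 1 did not pass among the 18 tested of 20 in the table, against 11 rises and 3 falls at a common FPKM sum. Cd274 (PD-L1) rose by 3.70 ± 0.05, Icam1 by 4.23 ± 0.10 and Cd86 by 0.89 ± 0.09. Cd74, the invariant chain, rose by 0.73 ± 0.06, and H2-Ab1 by 1.01 ± 0.07, which did not pass under quantile normalization, at 0.12. Havcr2 (TIM-3), at 0.656 and 0.884 FPKM in KO LPS libraries, against 7.82 and 8.53 FPKM in KO control libraries (log2 change -2.38 ± 0.09), was the exception among the members that passed.

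Constitutive proteasome genes were mostly higher. Of these, 31 rose, 0 fell and 3 did not pass among the 34 tested, against 23 rises and 3 falls at a common FPKM sum, with 12 of 14 core and 19 of 20 regulatory subunits higher. Psma6, a core subunit, was at 217 and 190.0 FPKM in KO LPS libraries, against 35.5 and 37.5 FPKM in KO control libraries (log2 change 2.45 ± 0.07). Psmd10 and Psma5 rose by 2.26 ± 0.05 and 1.74 ± 0.11. The median, 0.77, was 0.75 above that of all tested genes, or 0.68 above it at a common FPKM sum. Translation machinery was split. Of the tRNA synthetase genes, 16 rose, 13 fell and 5 did not pass among the 34 tested of 37 in the table, against 12 rises and 17 falls at a common FPKM sum. Divided after their values were seen, 16 of 20 genes for cytosolic enzymes rose (median 0.79, or 0.34 at a common FPKM sum) and 11 of 14 with names ending in 2, mostly mitochondrial, fell (median -0.35, or -0.70). Aars was at 40.3 and 40.1 FPKM in KO LPS libraries, against 12.2 and 12.2 FPKM in KO control libraries (log2 change 1.64 ± 0.07). Vars2 was at 0.98 and 0.869 FPKM in KO LPS libraries, against 2.61 and 2.400 FPKM in KO control libraries (log2 change -0.86 ± 0.09). Cytosolic ribosomal protein genes mostly did not pass (10 rose, 7 fell and 67 did not pass among the 84 tested of 91 in the table, against 3 rises and 64 falls at a common FPKM sum); many have pseudogene copies. For mitochondrial ribosomal proteins, 19 rose, 10 fell and 47 did not pass among the 76 tested of 78 in the table, against 8 rises and 48 falls at a common FPKM sum. For nuclear respiratory chain subunits, 18 rose, 11 fell and 48 did not pass among the 77 tested of 78 in the table, against 3 rises and 54 falls at a common FPKM sum. Rescaling to a common FPKM sum shifted these last 3 lists along with all genes. Their medians less that of all tested genes were 0.0026 (-0.079 at a common FPKM sum), -0.016 (0.0029 at a common FPKM sum) and 0.021 (-0.028 at a common FPKM sum). Quantile normalization did not: there they were -0.59, 0.078 and -0.17, with 4 rises and 65 falls among cytosolic ribosomal protein genes.

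**Figure D3:**
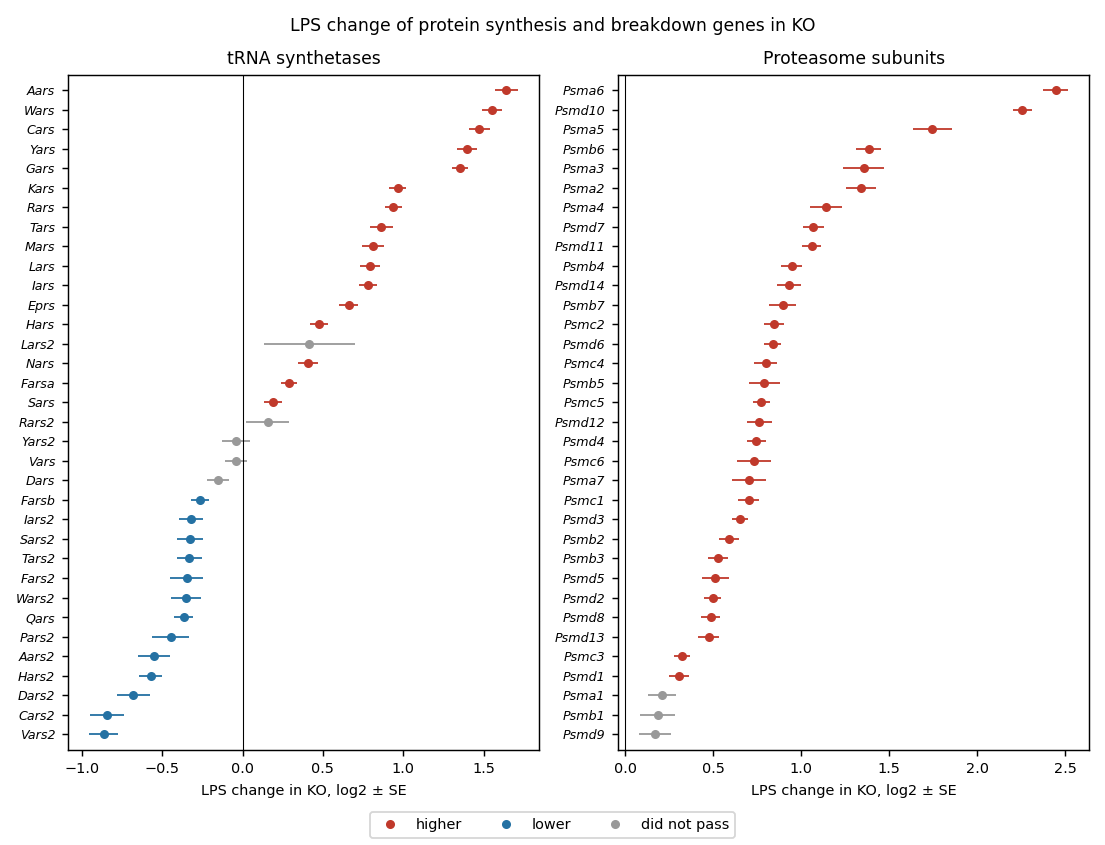
Log2 change with LPS in KO-labelled macrophages (KO LPS less KO control) of tRNA synthetase genes (left) and proteasome subunit genes (right), as estimate and standard error; red rose, blue fell and grey did not pass. Most cytosolic synthetases lie right of 0 and most names ending in 2 left of it, and every proteasome estimate lies right of 0.

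Lysosomal genes were mostly lower: 13 rose, 39 fell and 4 did not pass among the 56 tested, against 7 rises and 45 falls at a common FPKM sum, with a median of -0.51. As a share of total FPKM they made up 3.97 and 3.93% in KO LPS libraries, against 7.83 and 7.75% in KO control libraries. Sgsh, a heparan sulfate hydrolase, was nearly silent with LPS, at 0.326 and 0.589 FPKM in KO LPS libraries, against 21.9 and 22.02 FPKM in KO control libraries (log2 change -3.98 ± 0.11). Psap, a sphingolipid activator precursor, and the protease genes Ctsd and Ctsb fell, with log2 changes of -0.82 ± 0.05, -1.57 ± 0.05 and -0.53 ± 0.04, and Lipa, the acid lipase, of -1.55 ± 0.04. Ctsc, a protease that activates serine proteases, was at 331 and 318 FPKM in KO LPS libraries, against 28.7 and 29.2 FPKM in KO control libraries (log2 change 3.44 ± 0.05). The lysosomal regulators differed, Tfeb falling, with a log2 change of -1.16 ± 0.08 and Mitf rising by 1.60 ± 0.06. Of the phagocytic receptors, 15 rose, 14 fell and 4 did not pass among the 33 tested of 36 in the table, against 11 rises and 19 falls at a common FPKM sum. Marco and Msr1, scavenger receptors, rose by 4.59 ± 0.11 and 3.21 ± 0.04, and Fcgr1, an IgG receptor, by 3.22 ± 0.05. Mertk, a receptor for dying cells, was at 3.94 and 4.38 FPKM in KO LPS libraries, against 29.4 and 30.4 FPKM in KO control libraries (log2 change -2.58 ± 0.07). Its ligand Gas6 and Trem2 fell, with log2 changes of -2.09 ± 0.06 and -1.48 ± 0.04, while Axl rose by 1.59 ± 0.06.

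Lipid synthesis genes were mostly lower (6 rose, 19 fell and 7 did not pass among the 32 tested of 37 in the table, against 1 rise and 29 falls at a common FPKM sum). Fads1, a fatty acid desaturase, was at 4.23 and 4.33 FPKM in KO LPS libraries, against 37.2 and 39.4 FPKM in KO control libraries (log2 change -2.90 ± 0.06), and Fasn and Dhcr7 fell, with log2 changes of -1.19 ± 0.09 and -1.92 ± 0.10. Srebf2, an activator of sterol synthesis genes, changed by 0.46 ± 0.07, a value that lost its call at a common FPKM sum. In cholesterol handling, 5 rose, 11 fell and 3 did not pass among the 19 tested of 21 in the table, against 4 rises and 13 falls at a common FPKM sum. Ch25h, which makes 25-hydroxycholesterol, was at 87.4 and 99.1 FPKM in KO LPS libraries, against 0.268 and 0.0665 FPKM in KO control libraries (log2 change 6.34 ± 0.11). The exporter Abca1 and its activator Nr1h3 (LXR alpha) rose by 1.69 ± 0.04 and 1.73 ± 0.05, while Nceh1, a cholesteryl ester hydrolase, was at 11.6 and 13.5 FPKM in KO LPS libraries, against 88.2 and 88.3 FPKM in KO control libraries (log2 change -2.72 ± 0.08).

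Glucose use genes rose in part: 21 rose, 9 fell and 2 did not pass among the 32 tested of 33 in the table, against 19 rises and 12 falls at a common FPKM sum. Quantile normalization gave 16 rises and 14 falls. The median of this list less that of all tested genes was 0.17 there, against 0.77 on the deposited scale. The carriers Slc2a6 and Slc2a1 were higher. Slc2a6 was at 306 and 327 FPKM in KO LPS libraries, against 10.3 and 10.9 FPKM in KO control libraries (log2 change 4.78 ± 0.05) and Slc2a1 rose by 2.65 ± 0.05. Pfkfb3, which speeds glycolysis, rose by 3.87 ± 0.04, Hif1a by 1.80 ± 0.09, Ldha by 1.54 ± 0.05 and the lactate carrier Slc16a3 by 2.82 ± 0.05. Ldhb fell, with a log2 change of -1.55 ± 0.19, and Pkm changed by 0.67 ± 0.04, with the other sign under quantile normalization. In the list of unfolded protein and amino acid stress genes, 20 rose, 10 fell and 3 did not pass among the 33 tested, against 15 rises and 13 falls at a common FPKM sum. For oxidative stress and metals, 23 rose, 10 fell and 3 did not pass among the 36 tested of 37 in the table, against 18 rises and 12 falls at a common FPKM sum. Quantile normalization gave 16 rises and 16 falls. The median of this list less that of all tested genes was 0.11 there, against 0.64 on the deposited scale. Slc7a11, the cystine carrier, was at 84.9 and 90.5 FPKM in KO LPS libraries, against 4.54 and 4.39 FPKM in KO control libraries (log2 change 4.02 ± 0.07). Atf4 and its targets Asns and Mthfd2 rose by 1.61 ± 0.05, 2.79 ± 0.08 and 3.18 ± 0.07. Sod2 and Hmox1 rose by 4.54 ± 0.08 and 2.03 ± 0.05, Lcn2, which captures bacterial iron carriers, by 5.75 ± 0.08, and Slc40a1, the iron exporter ferroportin, was at 2.13 and 1.94 FPKM in KO LPS libraries, against 18.9 and 17.98 FPKM in KO control libraries (log2 change -2.68 ± 0.06). Gpx1 and Cat, peroxide-removing enzymes, fell, with log2 changes of -1.48 ± 0.10 and -1.27 ± 0.05.

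Cell cycle genes were mostly lower and at low levels (8 rose, 24 fell and 3 did not pass among the 35 tested of 48 in the table, against 5 rises and 26 falls at a common FPKM sum). E2f2 was at 0.155 and 0.173 FPKM in KO LPS libraries, against 7.25 and 6.81 FPKM in KO control libraries (log2 change -2.79 ± 0.10). Cdkn1a (p21), a cell cycle inhibitor, rose by 2.92 ± 0.06, and Ccnd2, a G1 cyclin, was at 19.2 and 22.8 FPKM in KO LPS libraries, against 0.0912 and 0.172 FPKM in KO control libraries (log2 change 4.28 ± 0.10). Mki67 rose by 1.74 ± 0.06 while Top2a and Mcm7 fell, with log2 changes of -1.05 ± 0.10 and -1.20 ± 0.12. For cell death genes, 21 rose, 8 fell and 5 did not pass among the 34 tested of 37 in the table, against 17 rises and 12 falls at a common FPKM sum. Bcl2a1d, a survival gene with near-identical copies, was at 184 and 161 FPKM in KO LPS libraries, against 2.67 and 2.44 FPKM in KO control libraries (log2 change 5.61 ± 0.09). Casp4, the LPS-sensing caspase, Casp1 and Gsdmd, the pore protein, rose by 4.08 ± 0.11, 2.77 ± 0.04 and 2.10 ± 0.08, as did Mlkl, of necroptosis, by 4.27 ± 0.18 and Cflar, a brake on caspase-8, by 3.30 ± 0.05. Bmf, which promotes apoptosis, fell, with a log2 change of -2.27 ± 0.08. In adhesion and migration, 24 rose, 11 fell and 2 did not pass among the 37 tested of 38 in the table, against 20 rises and 14 falls at a common FPKM sum. Quantile normalization gave 17 rises and 18 falls. The median of this list less that of all tested genes was 0.044 there, against 0.72 on the deposited scale. Marcksl1, an actin regulator, was at 815 and 832 FPKM in KO LPS libraries, against 23.2 and 23.7 FPKM in KO control libraries (log2 change 5.08 ± 0.09), Itga5 rose by 2.63 ± 0.06 and Itga6 was at 2.304 and 2.298 FPKM in KO LPS libraries, against 24.5 and 25.2 FPKM in KO control libraries (log2 change -2.97 ± 0.06).

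Lineage factors did not move together (16 rose, 13 fell and 8 did not pass among the 37 tested of 39 in the table, against 12 rises and 19 falls at a common FPKM sum). Of all tested genes, 34.7% rose and 31.2% fell, so a split in both directions is not particular to these factors or to the chromatin modifiers below. Cebpa, a factor of myeloid precursors, was at 10.5 and 9.96 FPKM in KO LPS libraries, against 142 and 141 FPKM in KO control libraries (log2 change -3.66 ± 0.05). Cebpb, Spi1 (PU.1) and Ets2 rose by 1.71 ± 0.06, 1.75 ± 0.04 and 3.13 ± 0.07, Elf4, a relative of Elf1, by 1.21 ± 0.07. Hhex, a homeobox factor, fell, with a log2 change of -3.04 ± 0.10. Of nuclear receptor and clock genes, 8 rose, 12 fell and 5 did not pass among the 25 tested of 30 in the table, against 5 rises and 17 falls at a common FPKM sum: Pparg, a lipid sensor, was at 0.441 and 0.33 FPKM in KO LPS libraries, against 5.02 and 5.46 FPKM in KO control libraries (log2 change -2.17 ± 0.09), Nr3c1, the glucocorticoid receptor, rose by 1.75 ± 0.05, and Rxra fell, with a log2 change of -1.82 ± 0.07. In chromatin modifiers, 16 rose, 15 fell and 12 did not pass among the 43 tested of 46 in the table, against 10 rises and 27 falls at a common FPKM sum. Setdb2 and Kdm6b rose by 2.31 ± 0.09 and 1.72 ± 0.13, and Dnmt1, the maintenance DNA methyltransferase, was at 5.94 and 6.63 FPKM in KO LPS libraries, against 22.2 and 22.96 FPKM in KO control libraries (log2 change -1.70 ± 0.08). Among G protein genes, 23 rose, 15 fell and 2 did not pass among the 40 tested, against 18 rises and 18 falls at a common FPKM sum. Rgs2, a brake on receptor signalling, was at 1.31 and 1.27 FPKM in KO LPS libraries, against 50.7 and 46.8 FPKM in KO control libraries (log2 change -4.44 ± 0.11); Adora2b, Gpr84 and Hcar2 rose by 5.11 ± 0.12, 5.25 ± 0.09 and 4.39 ± 0.07, and Gpr34 fell, with a log2 change of -3.31 ± 0.08. Of noncoding RNAs with a name, 5 rose, 4 fell and 8 did not pass among the 17 tested of 28 in the table, against 4 rises and 11 falls at a common FPKM sum; Mir155hg, host of miR-155, was at 48.7 and 60.7 FPKM in KO LPS libraries, against 0.189 and 0.188 FPKM in KO control libraries (log2 change 5.54 ± 0.11). Malat1, at 378 and 356 FPKM in KO LPS libraries, against 298 and 353 FPKM in KO control libraries, did not pass; it was higher without KO control library 2 (0.30) and lower at a common FPKM sum (-0.30).

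On none of the lists, the largest rise was that of Saa3, an acute phase protein, at 1277 and 975 FPKM in KO LPS libraries, against 0.191 and 0.689 FPKM in KO control libraries (log2 change 9.62 ± 0.18). The formyl peptide receptor genes Fpr1 and Fpr2 rose by 5.84 ± 0.09 and 6.18 ± 0.07, Slfn4 by 6.48 ± 0.06, Tarm1 by 6.23 ± 0.08 and Ms4a4c by 5.87 ± 0.09. Slc28a2, a nucleoside carrier, rose by 5.67 ± 0.09, Phf11b by 5.65 ± 0.07, and Ifi209 and Ifi206, close relatives whose reads may be shared, by 6.21 ± 0.06 and 5.63 ± 0.09. The largest fall was that of Arhgap19, a GTPase-activating protein, at 0.494 and 0.594 FPKM in KO LPS libraries, against 60.3 and 58.9 FPKM in KO control libraries (log2 change -5.29 ± 0.05). Enc1, Tmem37, Tmem154, St6gal1 and Slc26a11 fell, with log2 changes of -4.64 ± 0.08, -4.20 ± 0.08, -4.20 ± 0.08, -4.17 ± 0.07 and -4.16 ± 0.14, and Zdhhc14, Rassf3, Slc46a3 and Cd28 of -3.96 ± 0.12, -3.89 ± 0.12, -3.87 ± 0.09 and -3.67 ± 0.09. In absolute FPKM the largest gain was Fth1, the ferritin heavy chain, at 23115 and 21830.0 FPKM in KO LPS libraries, against 15423 and 15014 FPKM in KO control libraries (log2 change 0.56 ± 0.05). It did not pass at a common FPKM sum (0.086) or without a filter on low values. Acod1, Actb (2801 and 3085 FPKM in KO LPS libraries, against 966 and 1019.8 FPKM in KO control libraries), Ccl5, Ifitm3, Tnfrsf1b, B2m and Il1b followed. The largest loss was that of Lyz2, lysozyme, at 5493 and 4836 FPKM in KO LPS libraries, against 7598 and 8095 FPKM in KO control libraries (log2 change -0.61 ± 0.07), which did not pass without a filter, followed by Psap, Ctsd, Gpnmb, Ftl1, Apoe, Ctsb and Lgals3. Apoe did not pass without a filter and took the other sign under quantile normalization.

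The change in KO-labelled macrophages resembled that in WT in direction for most genes: 6998 were called in both with the same sign and 59 with opposite signs. The size differed for 1900 genes (16.0%; interaction term, limma adjusted p under 0.05), with 671 (5.64%) more positive and 1229 (10.3%) more negative in KO; at a common FPKM sum 937 were more positive and 729 more negative. Of the 47 interferon-stimulated effectors, 38 were more negative and 2 more positive (29 and 2 at a common FPKM sum), with a median LPS change of 4.52 in KO and 5.21 in WT. Cxcl10 had 235 and 242 FPKM in KO LPS libraries, against 1062 and 1204 FPKM in WT LPS libraries, and its change was 7.59 in KO and 9.85 in WT (difference -2.27 ± 0.13, adjusted p = 0.000699). Ccl2 rose by 3.39 in KO and 6.02 in WT (difference -2.63 ± 0.18, adjusted p = 0.000779), Ccl7 and Ccl3 differed by -2.48 ± 0.31, adjusted p = 0.00389 and -2.17 ± 0.11, adjusted p = 0.000699. Of chemokines, 11 were more negative and 3 more positive (10 and 3 at a common FPKM sum). Ccl22, a CCR4 ligand, was among those more positive, rising by 3.44 in KO and 2.20 in WT (difference 1.24 ± 0.16, adjusted p = 0.00446).

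Of the glycolysis and pentose phosphate genes, 13 were more positive and 7 more negative than in WT (13 and 5 at a common FPKM sum), with Ldha at 1.54 in KO and 0.82 in WT. Among the most positive differences, Ifi208 was at 6.199 and 6.14 FPKM in KO LPS libraries and 0.0557 and 0.0589 FPKM in WT LPS libraries (difference 2.72 ± 0.15, adjusted p = 0.000699); its family shares sequence. Apol7c, Arrb1, Sdc1 and Fgd3 differed by 2.06 ± 0.14, adjusted p = 0.000779, 1.85 ± 0.10, adjusted p = 0.000699, 1.26 ± 0.08, adjusted p = 0.000714 and 1.17 ± 0.10, adjusted p = 0.00128. Among the most negative, Ifit1bl1 and Iigp1 differed by -2.39 ± 0.14, adjusted p = 0.000699 and -2.07 ± 0.14, adjusted p = 0.000779. Elf1 changed by 0.06 in KO, with the scaling dependence given above, and by 0.70 in WT (difference -0.64 ± 0.10, adjusted p = 0.00891). The counts of differences were lower whichever single library was left out. Each removal leaves 1 library in its group and fewer degrees of freedom. These counts therefore cannot tell dependence on a given library from a loss of power. Only removals that moved a count by more than 1.5 times follow. Genes with a more positive change numbered 280 without KO control library 1, 289 without KO control library 2, 421 without KO LPS library 1, 428 and 348 without WT LPS libraries 1 and 2, and 399 without WT control library 1. Those with a more negative change numbered 683 and 686 without KO control libraries 1 and 2, and 813 and 682 without WT LPS libraries 1 and 2.

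**Figure D4:**
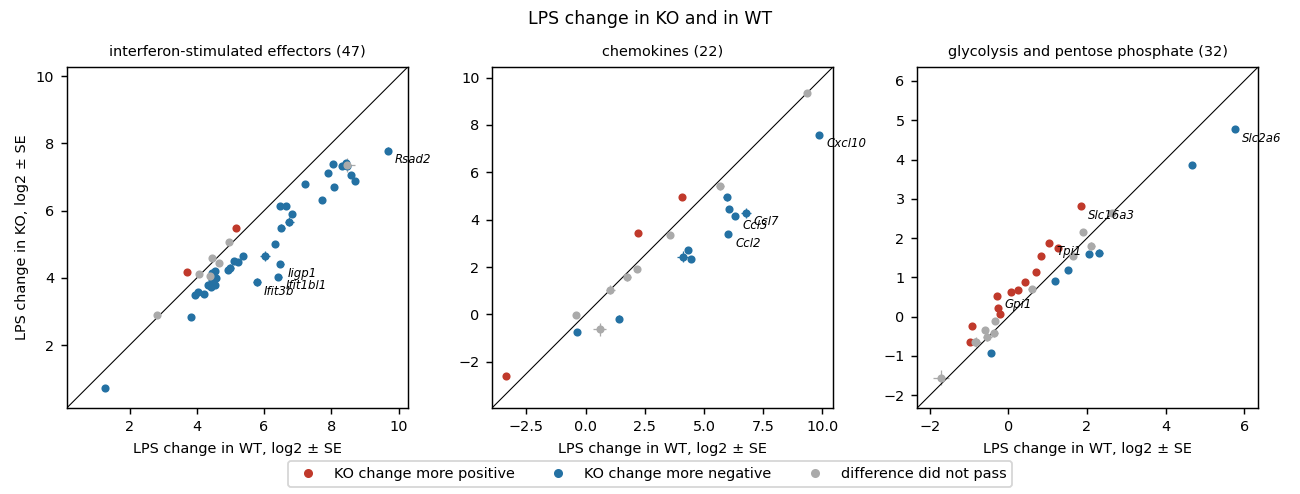
Log2 change with LPS in KO-labelled macrophages (y axis) against that in WT (x axis) for interferon-stimulated effectors, chemokines, and glycolysis and pentose phosphate genes; points are genes with standard errors and the line marks equal change. Blue and red points had a more negative or more positive change in KO by the interaction test and grey ones did not pass; the genes with the largest differences are named.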

How the data were processed

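RNA-seq of 8 libraries in 4 groups of 2 was used. The authors deposited gene FPKM values in 1 table, aligned to mm10 and processed with DESeq2 per the submitters' processing notes, which give no role or version; no aligner or counter is named in those notes. Every value was a whole multiple of 1 read's worth (within 0.001), so reads were rebuilt. The deposited FPKM are scaled by more than read totals. The library size they imply, over reads, was 0.93 and 0.91 in KO LPS libraries, against 1.28 and 1.28 in KO control libraries. In WT it was 0.80 and 0.78 with LPS, against 1.21 and 1.23 without. This factor thus differed between the groups compared, and every level quoted in FPKM carries it. The 11887 genes that reached 1 FPKM in 2 or more libraries were tested on log2(FPKM + 1), pseudocount 1, with limma 3.58.1 in R 4.3.3, with a mean-variance trend, 4 groups in 1 model (4 residual degrees of freedom, prior 2.74), checked on simulated data. Benjamini-Hochberg adjustment ran within each comparison over all tested genes. A fold change on this scale understates low genes. Library pairs of a group had median absolute log2 differences of 0.0696 to 0.103. At a common FPKM sum means that each library was rescaled to the mean deposited sum.

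Members, lists and comparisons were chosen with earlier results of these data known. Genes named by rule, at an adjusted p under 0.05, are Elf1 at any p, the 3 largest changes per list, the 10 largest rises and falls on no list (5 FPKM or more on average in the higher group, no overlap of groups, no predicted or clone names), the 8 largest gains and losses in FPKM, and the 6 most positive and negative differences from WT (5 FPKM or more in the higher KO group). Further members of each list, named for their role, the transcription factors in the closing section and the 6 promoters were chosen after their values were seen. Alternatives changed the scaling, the filter, the pseudocount, the trend, the libraries, the replicate block or, with limma-voom on rebuilt reads, the values tested. Symbols with repeated entries were not named, and some list members are not reported here. Whether counting used strand is not given in the sources used here, so overlapping and antisense genes, such as Mir155hg, are uncertain.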

Additional observations from a re-analysis of the deposited data

Results flagged for a closer look

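Of 309 genes carried through the alternatives, 149 had an LPS change in KO-labelled macrophages that differed from that in WT by the interaction test (limma adjusted p under 0.05). Of these, 106 were more negative and 43 more positive in KO. Over all tested genes 16.0% differed on this deposited scale, 671 more positive and 1229 more negative, against 937 and 729 at a common FPKM sum. More negative class I genes numbered 12 on the deposited scale and 4 at a common FPKM sum, and chemokines 11 and 10. Whether each gene below keeps its call at a common FPKM sum is not given, so small differences may depend on scaling. Values are log2 differences, KO change less WT change, with standard errors between 0.051 and 0.31 and adjusted p between 0.000699 and 0.0478. Most of these genes were named for a large LPS change, so their number is no estimate for other genes. A negative sign includes weaker rises (Ccl2, 3.39 in KO and 6.02 in WT) and deeper falls (Hpgd, -3.16 and -1.42). A positive sign includes stronger rises and shallower falls (Cxcr4, -4.46 in KO and -4.91 in WT). The sign does not give the level with LPS where control levels differ. Irf7 was more positive, yet its LPS level was lower in KO (243 and 239.9 FPKM) than in WT (414 and 437 FPKM). Its control level was also lower, at 3.804 and 3.59 FPKM in KO, against 12.5 and 12.1 FPKM in WT. For genes near 0 in all controls, such as Nos2 and Il6, the value mostly reflects the LPS levels and implies no fold change. Nos2 was at 332 and 370.3 FPKM in KO LPS libraries and 1064 and 1141 FPKM in WT LPS libraries.

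The change was more negative in KO for Ccl2 (-2.63), Ccl7 (-2.48), Ifit1bl1 (-2.39), Cxcl10 (-2.27), Ccl3 (-2.17), Iigp1 (-2.07), Rsad2 (-1.89), Hpgd (-1.73), Nos2 (-1.61), Ccl4 (-1.60), Ifit2 (-1.51), Hcar2 (-1.43), Ifit3 (-1.40), Egr1 (-1.34). It was also more negative in KO for Il15ra (-1.30), Tlr3 (-1.29), Psme2 (-1.24), Setdb2 (-1.19), Klf2 (-1.15), Nlrc5 (-1.15), Tnf (-1.11), Usp18 (-1.08), Cxcl2 (-1.03), Ccnd2 (-1.02), Il12b (-1.02), Cd86 (-1.01), Ch25h (-1.01), Mx1 (-1.01). Then came Slc28a2 (-0.99), Slc2a6 (-0.99), Atf3 (-0.98), Ptgs1 (-0.98), Gpr34 (-0.95), Il10 (-0.94), Ifi206 (-0.94), Ptgs2 (-0.92), Casp4 (-0.88), Ifih1 (-0.86), Ms4a4c (-0.86), Mt2 (-0.86), Il6 (-0.83), Mertk (-0.81). Further down were Pfkfb3 (-0.80), Il1a (-0.78), Slfn4 (-0.77), Stat2 (-0.74), Ctsc (-0.74), Eif2ak2 (-0.74), Sp110 (-0.74), Acod1 (-0.71), Mir155hg (-0.70), Cd274 (-0.69), Mmp13 (-0.69), Cd40 (-0.69), Batf2 (-0.68), Tlr2 (-0.68). Smaller differences were found for Stat3 (-0.66), Gbp2 (-0.65), Elf1 (-0.64), Cflar (-0.64), Psmb9 (-0.63), Tnfaip3 (-0.63), Hspa5 (-0.61), Nr3c1 (-0.61), Casp1 (-0.61), Wars (-0.60), Nr1d2 (-0.60), Ly96 (-0.58), Cyp27a1 (-0.57), Slc46a3 (-0.57). After them came Hmga2 (-0.57), Zfp36 (-0.56), Il1rn (-0.56), Socs3 (-0.55), Phf11b (-0.54), Nceh1 (-0.54), Socs1 (-0.52), Trim25 (-0.52), Fas (-0.52), Slc7a2 (-0.51), Gch1 (-0.50), Junb (-0.46), Cp (-0.45), Psmb10 (-0.44). After them came Irf1 (-0.44), Zc3h12c (-0.44), Tap1 (-0.38), Nfkbia (-0.37), Hivep3 (-0.37), Plagl2 (-0.37), Sp100 (-0.36), Jak2 (-0.36), Gas6 (-0.34), Rel (-0.33), Msr1 (-0.33), Traf1 (-0.33), Sdf2l1 (-0.32), Ifi209 (-0.32). After them came Atf4 (-0.32), Pla2g4a (-0.32), Psmb8 (-0.31), Jun (-0.29), Nfkb1 (-0.29), Hk2 (-0.28), Fcgr1 (-0.27), Lgals3 (-0.24).

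The change was more positive in KO for Ifi208 (2.72), Apol7c (2.06), Arrb1 (1.85), Sdc1 (1.26), Ccl22 (1.24), Fgd3 (1.17), Marco (1.06), Slc16a3 (0.97), Ccr7 (0.94), Ptges (0.83), Per1 (0.82), Nr1h3 (0.80), Lyl1 (0.79), Gtf2i (0.77). It was also more positive in KO for Cxcl14 (0.76), Slc7a11 (0.74), Ldha (0.72), Mxi1 (0.72), Fads1 (0.71), Rps27a (0.70), Cx3cr1 (0.69), Irf7 (0.69), Arg1 (0.66), Fos (0.64), Il1b (0.60), Gfi1 (0.58), Hmox1 (0.57), Mnt (0.56). Then came Rxra (0.55), Asns (0.55), Cdc42ep2 (0.53), Vegfa (0.49), Scd2 (0.46), Cxcr4 (0.45), Pkm (0.43), Abca1 (0.43), Vasp (0.42), Zfp36l2 (0.42), Neat1 (0.41), Irak3 (0.41), Cat (0.39), Cebpa (0.34). Further down were Ftl1 (0.33).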

How the results depend on the processing

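The counts for LPS in KO stayed within 1.5 times of the reported ones except under scaling and a stricter filter. At a common FPKM sum 2413 genes rose and 6730 fell, at equal read totals 2431 and 6776, and with a minimum FPKM of 5 only 2064 fell, with fewer genes tested; quantile normalization gave 3312 and 4577. Leaving out each library gave 3661 to 4162 rises and 3131 to 3699 falls, 280 to 616 more positive and 682 to 1123 more negative differences from WT. Differences from WT moved more: equal read totals gave 1280 more positive and 727 more negative, a common FPKM sum 937 and 729, quantile normalization 777 and 722, no filter 428 and 872. The replicate block gave 428 and 886 for these, and 4055 and 3585 for LPS in KO. Same-numbered libraries did not deviate together (r = 0.0227 across genes in KO, -0.0206 in WT). The cause of these shifts was not tested. The KO libraries alone cannot give the difference from WT.

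Of 309 genes carried through the alternatives, 296 could be tested in every setting and 276 of these kept direction and call throughout. The other 13 fell under the minimum FPKM of 5, and 11 of them kept both in the other settings. Most were named for a large change, so this says little about smaller ones. Reversed log2 changes, at a common FPKM sum, equal read totals and quantile normalization in turn, were Elf1 -0.39, -0.39 and -0.29, Fgd3 -0.12, -0.12 and -0.026, Sdha -0.40, -0.40 and -0.55, and Malat1 -0.30, -0.30 and -0.76. Traf6 gave -0.17 at a common sum and -0.17 at equal read totals. Quantile normalization also reversed Apoe (0.12), Zfp36 (-0.39), Srebf2 (-0.027), Hspa5 (-0.34), Nfe2l2 (-0.29) and Pkm (-0.25).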

Other observations

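Of 644 tested genes that the deposited table assigns to a transcription factor family, 203 rose and 226 fell, with a median log2 change of -0.05, beside 34.7% higher and 31.2% lower among all tested genes. At a common FPKM sum 122 rose and 402 fell, with a median of -0.42. Among those on no list, picked after their values were seen, Sp100 was at 72.8 and 76.2 FPKM in KO LPS libraries, against 5.07 and 4.92 FPKM in KO control libraries (log2 change 3.65 ± 0.05) and its relative Sp110 rose by 3.43 ± 0.06. Foxp4, Creb3l1, Jdp2, Hivep3, Plagl2 and Klf7 rose by 3.63, 3.56, 3.12, 2.81, 2.77 and 2.74 on the log2 scale. Mxd4, a partner of MAX, was at 0.793 and 0.966 FPKM in KO LPS libraries, against 8.15 and 8.02 FPKM in KO control libraries (log2 change -2.27 ± 0.11), and Mxi1 and Mnt changed by -1.65 and -1.52. Hmga2, Lyl1, Tsc22d3 (GILZ, a glucocorticoid target), Gtf2i and Nfic changed by -2.31, -2.17, -1.90, -1.78 and -1.42.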
